A study of Mus musculus with 52 samples.

Results

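Whole kidneys of female C57BL/6 mice aged 6 months were compared with those of 1 month by RNA sequencing, with 3 libraries at each age. These 6 libraries were chosen by tissue, strain and age from the 52 of a study of kidney, spleen and brain in female NZB/W-F1 mice and female C57BL/6 mice. NZB/W-F1 mice are hybrids of a New Zealand Black mother and a New Zealand White father and develop a lupus-like disease with nephritis, while C57BL/6 is the common inbred strain that served as the healthy, age-matched control, given as 3 mice. Per the labels, 1 month is the stage before puberty, 3 months precedes autoimmunity in the hybrids and 6 months is their nephritic stage. The hybrids were perfused with PBS before the organs were taken, and the labels do not say whether the C57BL/6 mice were. Beside the comparison of 6 with 1 month, 3 C57BL/6 kidneys of 3 months, 9 NZB/W-F1 kidneys (3 each of 6, 3 and 1 month), and C57BL/6 brains and spleens of 6 and 1 month are used below. The labels give every animal as female and do not give the oestrous stage. Xist, the transcript of the inactive X chromosome in female cells, went against that label in 1 library: it had 1.38 CPM in 6-month NZB/W-F1 kidney 3, where the other 17 kidneys had 274 to 524 CPM. The interaction count is given with and without that library. The NZB/W-F1 count is given with it and without a set of 3 libraries that includes it. Counts of genes shared by the strains are given with it only.

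Most of the RNA of a mouse kidney comes from the proximal tubule, whose cells take filtered solutes back from the urine and secrete organic anions and cations through transporters of the Slc22, Slc17, Slco and Abcc families. Many of these transporters, and the cytochrome P450 and conjugating enzymes beside them, are set at puberty by sex hormones and by the pulse pattern of growth hormone, so that adult females and males differ. The kidney of a young mouse still grows and lays down basement membrane, and its immune cells, among them macrophages, dendritic cells and antibody-secreting cells, accumulate as the animal meets microbes.

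The deposited values are CPM, read counts scaled to library size on the authors' normalised scale, and the whole reads behind them could be recovered. The C57BL/6 kidney libraries held 7305655 to 12233870 reads in genes at 6 months and 5456869 to 11423419 at 1 month. A count of 3 reads, used as a floor, equals 0.189 to 0.305 CPM at 6 months and 0.192 to 0.402 CPM at 1 month. The tissue label was met by nephron markers in all 6 libraries. Umod, uromodulin of the thick ascending limb, had 1319, 1863 and 1596 CPM at 6 months, against 643, 618 and 443 CPM at 1 month. Lrp2, megalin of the proximal tubule, had 2259, 2947 and 2238 CPM at 6 months, against 1439.8, 1661 and 1487 CPM at 1 month. Nphs1, nephrin of the podocyte, had 18, 17.9 and 10.7 CPM at 6 months, against 16.6, 14 and 9.15 CPM at 1 month. The adrenal enzyme gene Cyp11b1 stayed at or under 0.0683 CPM in all 6, where 2 NZB/W-F1 kidneys had 247 and 636 CPM. The labels give no batch or date, so a batch shared by the libraries of 1 age cannot be told apart from age. By sample number, the C57BL/6 kidneys of 1 and 3 months stand apart from those of 6 months. Whether this marks a batch is not stated. In whole tissue a higher level can stand for more cells of a type or more RNA per cell, and these cannot be told apart.

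Between 6 and 1 month, 942 of 14373 tested genes passed a Benjamini-Hochberg adjusted p of 0.05 in limma (6.55%). Of these, 547 were higher at 6 months (3.81%) and 395 were lower (2.75%). The quasi-likelihood test of edgeR on the recovered reads gave 548 higher (3.81%) and 363 lower (2.53%), in all 6.34% of the genes. At an unadjusted p under 0.05 stood 3273 genes (22.8%), and in 5999 (41.7%) the libraries of the ages did not overlap. The rises were the larger: 293 of the 547 reached 2-fold, 95 reached 4-fold and 17 reached 16-fold, against 99, 10 and 2 of the 395 that fell. The fit shares its spread over all 18 kidney libraries. Fitted on the 6 libraries alone, 3038 genes passed, 1519 higher and 1519 lower. Leaving out 3 NZB/W-F1 libraries that held adrenal or liver RNA or few Xist reads gave 1316 (9.16%), 744 higher (5.18%) and 572 lower (3.98%). Leaving out 6-month kidney 1, 2 or 3 gave 683, 351 or 454 genes, and leaving out 1-month kidney 1, 2 or 3 gave 497, 472 or 467. Genes named below kept their call under every alternative tried unless the text says otherwise.

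**Figure D1:**
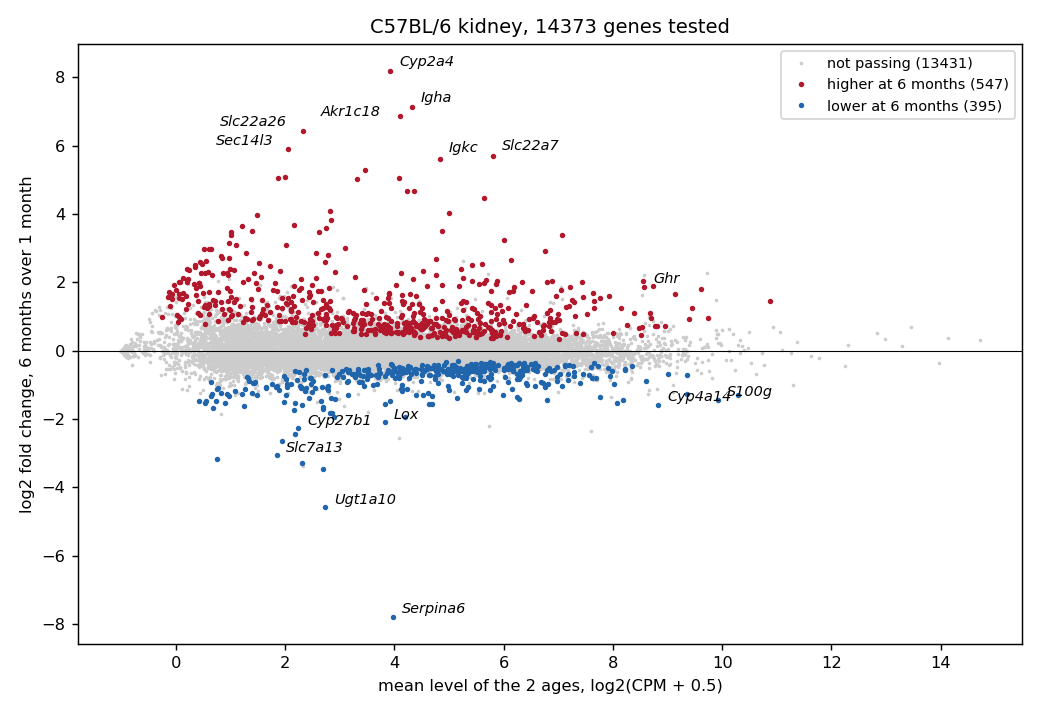
Log2 fold change of 6 over 1 month (vertical) against the mean level of both ages (horizontal, log2 of CPM + 0.5) for the 14373 tested genes of C57BL/6 kidney. Red points are the 547 genes higher at 6 months and blue points the 395 lower. Rises reach further from 0 than falls, with Serpina6 the exception at the bottom.

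Transporters that carry organic ions across the proximal tubule held the most rises by number among the gene lists. Of 38 tested organic ion transporter genes, 12 were higher at 6 months and 1 was lower, where 3.81% and 2.75% of all tested genes were. Their median log2 fold change was 0.39 against -0.00 over all genes. Slc22a7 (ENSMUSG00000067144, chromosome 17, 46432183 to 46438457, minus strand), an organic anion transporter of the proximal tubule, had 389.9, 435 and 375 CPM at 6 months, against 6.02, 8.95 and 6.72 CPM at 1 month (log2 fold change 5.71, SE 0.25, adjusted p = 8.6e-10). Slc22a26, a rodent member of the same family, had 32.8, 75.5 and 35.1 CPM at 6 months, against 0, 0 and 0.0640 CPM at 1 month, a single read in the whole 1-month group (log2 fold change 6.43, SE 0.58, adjusted p = 4.3e-06). Its ratio was 1813 with a 95% counting interval of 325 to 71634. No library of 6 months came near a library of 1 month for either gene, but the largest rises were picked for ages that do not overlap.

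Further members of the list rose from a clear level at 1 month. Slc22a19, an organic anion transporter, had 277, 351 and 267 CPM at 6 months, against 32.4, 45.1 and 39 CPM at 1 month (log2 fold change 2.93, SE 0.28, adjusted p = 7.7e-06). Slc22a13, a urate and nicotinate transporter, had 142, 181 and 162 CPM at 6 months, against 39.5, 44.5 and 35 CPM at 1 month (log2 fold change 2.01, SE 0.20, adjusted p = 1.5e-05). Slc17a3, a urate exporter of the apical membrane, had 294, 291 and 261 CPM at 6 months, against 63.9, 75 and 94.9 CPM at 1 month (log2 fold change 1.87, SE 0.23, adjusted p = 1.0e-04). In all 3 genes the lowest 6-month library exceeded the highest 1-month library. Ages did not overlap, in either direction, in 41.7% of all tested genes. Slco1a6, an anion transporting polypeptide, and Abcc3, an efflux pump for conjugates, rose by 1.77 (SE 0.22, adjusted p = 1.5e-04) and 1.86 (SE 0.35, adjusted p = 0.0047) on the log2 scale. Slc22a30 rose by 1.84 (SE 0.34, adjusted p = 0.0040), and its neighbour Slc22a28 by 1.54 (SE 0.32, adjusted p = 0.0078). Slc22a28 and Slc22a30 share sequence, 68.2% of the 31-base words of Slc22a28 occurring in another gene, so that their reads may be split between them. Slc22a28 missed the threshold when 6-month kidney 2 was left out (largest adjusted p 0.056).

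The drug pump Abcb1a rose by 1.28 (SE 0.28, adjusted p = 0.013) and missed the threshold when 6-month kidney 2, or 1-month kidney 2, was left out (largest adjusted p 0.064). Slc22a2, the organic cation transporter, and Slc22a12, the urate reabsorber, rose by 0.85 (SE 0.22, adjusted p = 0.028) and 0.96 (SE 0.25, adjusted p = 0.030), and both missed it when any of the 6 kidneys was left out (largest adjusted p 0.15). The member that fell was Slco4c1, a carrier of thyroid hormone and glycosides, with 7.17, 8.71 and 9.96 CPM at 6 months, against 21.8, 29.2 and 23.3 CPM at 1 month (log2 fold change -1.47, SE 0.31, adjusted p = 0.0084). The classical drug transporters did not pass, with a log2 fold change of 0.48 for Slc22a6 (adjusted p = 0.31) and one of 0.38 for Slc22a8 (adjusted p = 0.26).

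Carriers outside that list rose too, with 1 fall among those for amino acids. Slc10a2, the sodium-dependent bile acid transporter, had 112, 141 and 127 CPM at 6 months, against 5.62, 6.27 and 10.7 CPM at 1 month (log2 fold change 4.03, SE 0.24, adjusted p = 3.9e-08). Slc17a2, a phosphate and anion carrier, had 24.7, 31.1 and 30.2 CPM at 6 months, against 1.47, 1.30 and 0.895 CPM at 1 month (log2 fold change 4.09, SE 0.26, adjusted p = 6.9e-08). Among 25 tested amino acid transporters, 3 rose and 1 fell, where 3.81% and 2.75% of all tested genes did. Slc7a12 rose by 2.03 (SE 0.39, adjusted p = 0.0057) and Slc1a4, a carrier of neutral amino acids, by 1.68 (SE 0.22, adjusted p = 1.9e-04). Slc6a18, a glycine and alanine carrier, rose by 0.93 (SE 0.22, adjusted p = 0.020) and missed the threshold when 6-month kidney 2 or 3, or 1-month kidney 2 or 3, was left out (largest adjusted p 0.10). The one that fell was Slc7a13, a cystine and aspartate carrier of the late proximal tubule, with 0.888, 0.758 and 0.610 CPM at 6 months, against 9.50, 11.2 and 9.15 CPM at 1 month (log2 fold change -3.06, SE 0.21, adjusted p = 2.0e-07).

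**Figure D2:**
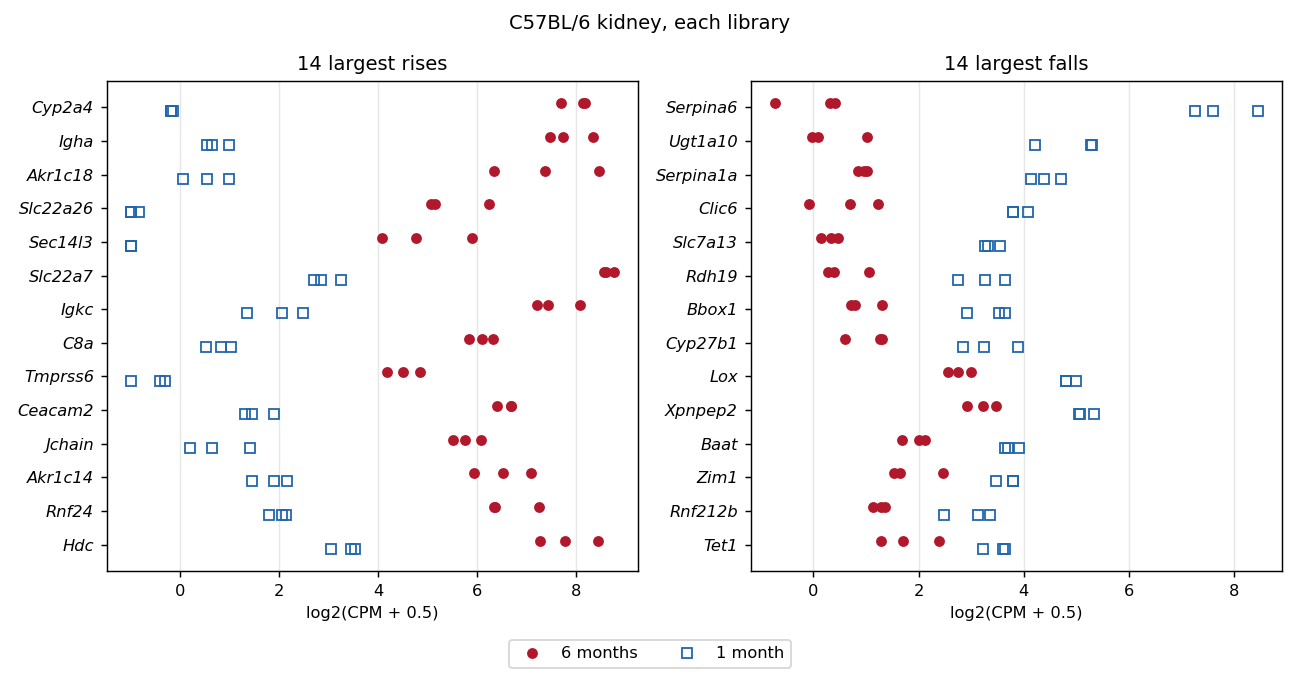
Level of each of the 6 libraries (horizontal, log2 of CPM + 0.5) for the 14 genes with the largest rises (left) and the 14 with the largest falls (right), red circles for 6 months and open blue squares for 1 month. The genes were chosen among those whose ages do not overlap. Akr1c18 and Sec14l3 have the widest spread at 6 months among the rises.

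Steroid-metabolising enzymes held the largest rise of all. Cyp2a4 (ENSMUSG00000074254, chromosome 7, 26307169 to 26315088, plus strand), a steroid hydroxylase, had 207, 291 and 281 CPM at 6 months, against 0.402, 0.383 and 0.384 CPM at 1 month (log2 fold change 8.18, SE 0.37, adjusted p = 8.6e-10). Its value is uncertain, since 58.1% of its 31-base words occur in another gene, Cyp2a5 the closest, which itself did not pass (log2 fold change 0.88, adjusted p = 0.25). Akr1c18 (ENSMUSG00000021214, chromosome 13, 4132615 to 4150654, minus strand), the hydroxysteroid dehydrogenase that inactivates progesterone, had 80.8, 352 and 166 CPM at 6 months, against 1.47, 0.536 and 0.959 CPM at 1 month (log2 fold change 6.87, SE 0.61, adjusted p = 3.6e-06). Akr1c14, a related hydroxysteroid dehydrogenase, had 60.6, 135 and 91.9 CPM at 6 months, against 3.21, 3.98 and 2.24 CPM at 1 month (log2 fold change 4.68, SE 0.34, adjusted p = 3.0e-07). Akr1c18 varied widely among the 3 kidneys of 6 months, and no overlap with 1 month was a condition for naming it.

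Genes known to differ between the sexes in mouse kidney changed in both directions, where 3.81% of all tested genes were higher and 2.75% lower. Of 16 tested genes with higher levels in adult females, 7 rose and 2 fell, with a median of 0.23. The rises were Cyp2a4, Akr1c18, Slc22a7, Slc7a12, Abcc3, Hao2 and Gstp1, and the falls were Slco4c1 and Cyp4a14. Hao2, a peroxisomal oxidase, rose by 0.97 (SE 0.22, adjusted p = 0.016) but missed the threshold when any 6-month kidney, or 1-month kidney 1 or 2, was left out (largest adjusted p 0.069). Gstp1, a glutathione transferase, rose by 0.55 (SE 0.12, adjusted p = 0.0096) and missed it when 1-month kidney 3 was left out (largest adjusted p 0.053). Of 21 tested genes with higher levels in adult males, 8 rose and 2 fell, with a median of 0.38. Among them Cyp2d9 rose by 2.30 (SE 0.40, adjusted p = 0.0023), the dipeptidase Cndp2 by 1.46 (SE 0.22, adjusted p = 8.3e-04) and the metalloprotease Mep1b by 1.10 (SE 0.21, adjusted p = 0.0057). The falls were Slc7a13 and Timd2, a ferritin receptor, with -1.54 (SE 0.31, adjusted p = 0.0069). Kap, the androgen-regulated protein of the proximal tubule, was at 10989.6, 15901 and 15954 CPM at 6 months, against 10103, 8794 and 7557 CPM at 1 month and did not pass (log2 fold change 0.68, adjusted p = 0.23). Both lists held more members that rose than fell, in a comparison of females alone. Slc22a7, Abcc3 and Slco4c1 of the female list were also counted above as organic ion transporters. So were Slc22a13, Slc22a28 and Slc22a30 of the male list.

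Cytochrome P450 genes of the drug-metabolising families were split, with 4 of 28 tested higher and 6 lower at 6 months and a median of 0.16. Beside Cyp2a4 and Cyp2d9 the rises were Cyp4f14, a leukotriene and fatty acid hydroxylase, at 3.51 (SE 0.57, adjusted p = 0.0013), and Cyp2d12 at 2.03 (SE 0.47, adjusted p = 0.018), which missed the threshold when 6-month kidney 2 or 3, or 1-month kidney 2 or 3, was left out (largest adjusted p 0.10). Cyp4a14, a fatty acid hydroxylase, fell to 299.6, 239 and 228 CPM at 6 months, against 1157, 704 and 545 CPM at 1 month (log2 fold change -1.59, SE 0.31, adjusted p = 0.0064). Cyp2d26 fell to 166, 158 and 146 CPM at 6 months, against 542, 396 and 438 CPM at 1 month (log2 fold change -1.54, SE 0.20, adjusted p = 1.7e-04). Cyp2d22 fell by 0.85 on the log2 scale (adjusted p = 0.0061). The fall of Cyp2j6 was lost when 6-month kidney 2 or 3, or 1-month kidney 1 or 3, was left out (largest adjusted p 0.085) and that of Cyp2j9 when any 6-month kidney, or 1-month kidney 1 or 2, was left out (largest adjusted p 0.16). Cyp4a12b fell too, but shares 62.9% of its words with other genes and lost its call when any of the 6 kidneys was left out (largest adjusted p 0.14). Of 35 tested conjugating enzymes 4 rose and 3 fell, where 3.81% and 2.75% of all tested genes did. Sult1d1, a sulphotransferase for catecholamines, fell by 1.26 on the log2 scale (SE 0.20, adjusted p = 0.0011).

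Among 19 tested genes of sex steroid, growth hormone and prolactin signalling 4 rose and none fell, where 3.81% and 2.75% of all tested genes did. Their median was 0.23. Ghr (ENSMUSG00000055737, chromosome 15, 3317760 to 3583492, minus strand), the growth hormone receptor, had 689.7, 769.6 and 718 CPM at 6 months, against 177, 220.5 and 202 CPM at 1 month (log2 fold change 1.86, SE 0.26, adjusted p = 3.3e-04). Socs2, the feedback inhibitor that growth hormone induces through STAT proteins, had 65.9, 53.9 and 54.7 CPM at 6 months, against 11.2, 11.1 and 14.1 CPM at 1 month (log2 fold change 2.22, SE 0.26, adjusted p = 8.3e-05). Stat5a, a STAT protein that this receptor activates, had 21.6, 19.6 and 22.5 CPM at 6 months, against 10.04, 14.3 and 11.8 CPM at 1 month (log2 fold change 0.81, SE 0.16, adjusted p = 0.0063). The libraries of both ages were apart in all 3 genes, as in 41.7% of all tested genes. Hsd17b2, which oxidises oestradiol, rose by 1.55 (SE 0.37, adjusted p = 0.021) and missed the threshold when any 6-month kidney, or 1-month kidney 3, was left out (largest adjusted p 0.11). Other genes of the growth hormone pathway did not pass, with 0.32 on the log2 scale for Stat5b (adjusted p = 0.13), 1.07 for Cish (adjusted p = 0.13) and 0.17 for Igfbp3 (adjusted p = 0.75). The prolactin receptor Prlr, the oestrogen receptor Esr1 and the growth factor Igf1 did not pass, at -0.09, -0.73 and -0.35 on the log2 scale (adjusted p = 0.84, 0.11 and 0.64).

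The upstream sequences of 3 genes that rose strongly are shown because STAT proteins, which growth hormone activates, bind the palindrome TTCNNNGAA, which was searched on both strands and reads the same on each. They are the 250 bases before the annotated start in RefSeq (GRCm38.p6, the assembly of mm10), from 5′ to 3′ on the strand of the gene, with each match in capitals.
Slc22a26 (chr19:7802668-7802917, minus strand): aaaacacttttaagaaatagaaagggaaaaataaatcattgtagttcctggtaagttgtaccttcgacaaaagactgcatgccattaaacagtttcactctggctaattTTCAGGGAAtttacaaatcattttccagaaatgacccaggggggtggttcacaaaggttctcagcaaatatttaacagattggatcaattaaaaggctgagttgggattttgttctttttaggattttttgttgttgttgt
C8a (chr4:104876399-104876648, minus strand): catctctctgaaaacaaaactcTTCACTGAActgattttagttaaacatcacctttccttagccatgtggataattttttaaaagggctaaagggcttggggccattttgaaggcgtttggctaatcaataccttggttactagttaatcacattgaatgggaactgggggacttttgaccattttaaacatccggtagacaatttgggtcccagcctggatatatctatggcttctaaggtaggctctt
Akr1c18 (chr13:4150647-4150896, minus strand): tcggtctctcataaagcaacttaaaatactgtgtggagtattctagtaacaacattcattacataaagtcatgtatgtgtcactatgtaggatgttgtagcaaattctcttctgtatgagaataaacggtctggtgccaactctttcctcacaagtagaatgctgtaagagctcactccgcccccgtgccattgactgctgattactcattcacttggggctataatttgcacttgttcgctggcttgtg
Slc22a26 and C8a held 1 match each, which begins 141 bases before the start in Slc22a26 and 228 bases before it in C8a, and Akr1c18 held none. The palindrome occurred in 7.02% of all 32851 promoter windows in the table, in 801 of 10893 tested genes with an entry (7.35%), in 39 of 386 genes higher at 6 months (10.1%) and in 10 of 296 genes lower at 6 months (3.38%). GTTAAT, part of the site of the hepatocyte factor HNF1, was searched on both strands in the same windows and occurred in 6.43% of all windows, 5.52% of tested genes, 8.55% of genes higher at 6 months and 8.11% of genes lower at 6 months. These shares describe letters in a window and say nothing of binding. Of 319 genes looked up by symbol, 221 had an entry.

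Several genes better known from liver were among the largest rises. C8a (ENSMUSG00000035031, chromosome 4, 104815679 to 104876398, minus strand), a chain of the membrane attack complex of complement, had 56.8, 79.9 and 67.6 CPM at 6 months, against 0.937, 1.53 and 1.28 CPM at 1 month (log2 fold change 5.29, SE 0.26, adjusted p = 2.1e-09). Tmprss6, the protease that restrains hepcidin, had 17.6, 22 and 28.1 CPM at 6 months, against 0, 0.306 and 0.256 CPM at 1 month (log2 fold change 5.08, SE 0.67, adjusted p = 2.2e-04). Apob, the apolipoprotein of liver and intestine that the kidney also makes, had 181, 216 and 189 CPM at 6 months, against 19.7, 18.9 and 22.6 CPM at 1 month (log2 fold change 3.23, SE 0.53, adjusted p = 0.0015). C8a and Tmprss6 were picked among genes whose ages do not overlap. Apob, named as a list member, had no overlap either, as 41.7% of all tested genes had none. Of the 7 tested liver markers, Apob rose and Serpina1a fell, where 3.81% and 2.75% of all tested genes did. Of these markers 2 had positive and 5 negative fold changes, and their median was -0.09. Alb, albumin, had 8.40, 6.19 and 8.64 CPM at 6 months, against 1.74, 1.30 and 2.17 CPM at 1 month (adjusted p = 0.60), and Ttr, transthyretin, had 26.7, 15.4 and 23.2 CPM at 6 months, against 48.7, 38.4 and 41.5 CPM at 1 month (adjusted p = 0.46). The spread behind these adjusted p took in 1-month NZB/W-F1 kidney 1, which had 5556 CPM of Alb. Without 3 NZB/W-F1 libraries with adrenal or liver RNA or few Xist reads, 2 of the 7 markers rose and 1 fell. Fitted on the 6 C57BL/6 libraries alone, 2 rose and 3 fell. The 6 markers other than Apob summed to 39.4 to 53.7 CPM at 6 months and 85.1 to 109 CPM at 1 month, the lower sums at 6 months. The markers Ahsg, Cps1, Cyp2c29, Mup20 and Serpina3k did not pass the filter on low values. The part of liver RNA in these rises was not tested.

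Hdc, histidine decarboxylase, which makes histamine, had 217, 347 and 154 CPM at 6 months, against 7.76, 11.1 and 10.5 CPM at 1 month (log2 fold change 4.48, SE 0.68, adjusted p = 7.1e-04). Rnf24, a membrane RING finger protein, had 81.9, 152 and 80.7 CPM at 6 months, against 2.94, 3.90 and 3.65 CPM at 1 month (log2 fold change 4.66, SE 0.44, adjusted p = 7.6e-06). Sec14l3, a lipid-binding protein, had 16.3, 59 and 26.8 CPM at 6 months, against 0, 0 and 0 CPM at 1 month, so that with no read at 1 month it was at least 430.2-fold higher against a floor of 3 reads over the group. Ceacam2, an adhesion receptor, rose by 5.04 (SE 0.39, adjusted p = 6.3e-07) but shares 57.1% of its words with other genes, Ceacam1 the closest, and is uncertain. Of these, Sec14l3 and Hdc varied most among the 6-month kidneys, and no overlap with 1 month was a condition for naming both. The annotation places Rnf24 over Pank2, C8a over Gm17662, Igf2 over Gm49394 and Igf2os, and Rassf4 over Depp1, and gives Lox, Ceacam2 and Pla2g7 antisense genes. How the counts treated strand is not stated, so reads of such overlapping genes cannot be told apart.

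The largest fall was that of Serpina6 (ENSMUSG00000060807, chromosome 12, 103646630 to 103657212, minus strand), corticosteroid-binding globulin, with 0.752, 0.821 and 0.102 CPM at 6 months, against 353, 194 and 152 CPM at 1 month (log2 fold change -7.77, SE 0.43, adjusted p = 9.7e-09). Ugt1a10, a glucuronosyltransferase whose locus shares its last exons among several genes, had 0.478, 0.568 and 1.52 CPM at 6 months, against 39, 38.6 and 18.2 CPM at 1 month (log2 fold change -4.58, SE 0.48, adjusted p = 2.1e-05). Clic6, a chloride intracellular channel protein, had 1.84, 0.442 and 1.12 CPM at 6 months, against 16.5, 13.3 and 13.4 CPM at 1 month (log2 fold change -3.28, SE 0.31, adjusted p = 7.7e-06). In each, the highest 6-month library was far under the lowest 1-month library, but the largest falls were picked for ages that do not overlap. Rdh19, of the retinol dehydrogenase family, fell by 2.64 and Baat, which conjugates bile acids, by 1.81 on the log2 scale (adjusted p = 5.9e-04 and 0.0068). Bbox1, the last enzyme of carnitine synthesis, fell by 2.43 (adjusted p = 0.0089) and missed the threshold when 6-month kidney 2 was left out (largest adjusted p 0.051). Serpina1a fell by 3.47 (adjusted p = 0.016) but shares 65.2% of its words with its copies and missed the threshold when 6-month kidney 2 or 3, or 1-month kidney 1 or 2, was left out (largest adjusted p 0.061).

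Enzymes of vitamin D and of peptide hormones fell as well. Cyp27b1 (ENSMUSG00000006724, chromosome 10, 127048250 to 127053006, plus strand), which makes active vitamin D in the proximal tubule, had 1.98, 1.89 and 1.02 CPM at 6 months, against 14.3, 9.03 and 6.65 CPM at 1 month (log2 fold change -2.27, SE 0.41, adjusted p = 0.0035). S100g, the vitamin D-dependent calcium-binding protein of the distal tubule, had 738, 448 and 590.0 CPM at 6 months, against 1468, 1480.0 and 1801 CPM at 1 month (log2 fold change -1.44, SE 0.35, adjusted p = 0.021), and missed the threshold when 6-month kidney 2 or 3, or any 1-month kidney, was left out (largest adjusted p 0.12). These were the 2 of 20 tested vitamin D, calcium and phosphate genes that passed, both lower, where 2.75% of all tested genes were lower. Enpep, an aminopeptidase that degrades angiotensin II, fell by 0.88 (adjusted p = 0.015) and missed the threshold when 6-month kidney 2 or 3, or 1-month kidney 2 or 3, was left out (largest adjusted p 0.078). Xpnpep2, a further membrane aminopeptidase, had 8.88, 10.6 and 7.11 CPM at 6 months, against 39.8, 33.3 and 32.6 CPM at 1 month (log2 fold change -1.94, SE 0.26, adjusted p = 2.6e-04). Ace, the converting enzyme, was at 145, 224 and 193 CPM at 6 months, against 80.6, 84.3 and 46.4 CPM at 1 month and did not pass (log2 fold change 1.43, adjusted p = 0.091).

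A minority of the basement membrane, matrix and imprinted growth genes passed, more of them lower than higher. Over all tested genes 3.81% were higher and 2.75% lower. Of 17 tested basement membrane genes 4 fell and none rose, at a median of -0.20. Lamc1, a laminin chain, had 60.6, 59.1 and 55 CPM at 6 months, against 82.6, 90.3 and 93.8 CPM at 1 month (log2 fold change -0.61, SE 0.11, adjusted p = 0.0040). Its ranges did not overlap, as in 41.7% of all tested genes. The collagen IV chains Col4a1, Col4a2 and Col4a5 fell by 0.88, 0.98 and 1.29 on the log2 scale (adjusted p = 0.034, 0.019 and 0.011). Col4a1 missed the threshold when any of the 6 kidneys was left out (largest adjusted p 0.14), Col4a2 when any 6-month kidney, or 1-month kidney 1 or 3, was left out (largest adjusted p 0.090) and Col4a5 when 6-month kidney 2 was left out (largest adjusted p 0.061). Lox, which cross-links collagen and elastin, had 7.45, 6.25 and 5.38 CPM at 6 months, against 27.4, 27.4 and 31.2 CPM at 1 month (log2 fold change -2.10, SE 0.44, adjusted p = 0.0089). Elastin itself, Eln, fell by 1.56 (adjusted p = 0.045) and missed the threshold when any of the 6 kidneys was left out (largest adjusted p 0.13). Of 28 tested fibrillar collagen and matrix genes these were the 2 that fell, and P4ha1, a collagen prolyl hydroxylase subunit, was the 1 that rose, a call lost when 6-month kidney 2 or 3, or 1-month kidney 1 or 2, was left out (largest adjusted p 0.10).

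Aplnr, the apelin receptor of endothelium, fell to 17.4, 11.6 and 14.9 CPM at 6 months, against 42, 44.4 and 43.4 CPM at 1 month (log2 fold change -1.55, SE 0.22, adjusted p = 3.6e-04), 1 of 2 endothelial genes of 18 tested that fell. Among 16 tested imprinted growth genes 3 fell and 1 rose, where 2.75% and 3.81% of all tested genes did. Zim1, an imprinted zinc finger gene, had 5.06, 2.40 and 2.64 CPM at 6 months, against 13.4, 13.5 and 10.7 CPM at 1 month (log2 fold change -1.81, SE 0.32, adjusted p = 0.0031). Peg3 and Grb10 fell by 1.11 and 0.62 (adjusted p = 0.026 and 0.039), and the threshold was missed for Peg3 when 6-month kidney 2 or 3, or any 1-month kidney, was left out (largest adjusted p 0.11) and Grb10 when 6-month kidney 2 or 3, or any 1-month kidney, was left out (largest adjusted p 0.18). Igf2, the fetal growth factor, went the other way, with 3.07, 10.4 and 5.99 CPM at 6 months, against 0, 0 and 0.256 CPM at 1 month (log2 fold change 3.46, SE 0.53, adjusted p = 8.3e-04). Tet1, a methylcytosine dioxygenase, fell by 1.70 on the log2 scale (adjusted p = 0.0030). Of 29 tested cell cycle genes 1 rose, Ube2c, and none fell in the fit over all 18 kidney libraries. Their median was -0.21, and 7 had positive fold changes. Without 3 NZB/W-F1 libraries with adrenal or liver RNA or few Xist reads 4 fell, and fitted on the 6 libraries alone 5 fell. Mki67, the proliferation antigen, had 5.67, 2.84 and 5.49 CPM at 6 months, against 11.5, 9.10 and 12.5 CPM at 1 month and did not pass (adjusted p = 0.12). Ube2c missed the threshold when any 6-month kidney, or 1-month kidney 1 or 3, was left out (largest adjusted p 0.10).

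Antibody genes were the largest immune change. Igha (ENSMUSG00000095079, chromosome 12, 113254830 to 113260236, minus strand), the heavy chain constant region of IgA, had 211, 323 and 177 CPM at 6 months, against 1.47, 1.07 and 0.959 CPM at 1 month (log2 fold change 7.12, SE 0.44, adjusted p = 4.1e-08). Igkc, the kappa light chain, had 173, 269 and 147 CPM at 6 months, against 5.09, 3.67 and 2.05 CPM at 1 month (log2 fold change 5.61, SE 0.35, adjusted p = 4.5e-08). Jchain, which joins IgA and IgM into polymers, had 53.4, 67.4 and 45.2 CPM at 6 months, against 1.07, 2.14 and 0.640 CPM at 1 month (log2 fold change 5.04, SE 0.36, adjusted p = 2.9e-07). Every 6-month kidney was above every 1-month kidney in these 3 genes, a condition for naming them among the largest rises. Ighg2b rose by 3.16 (SE 0.48, adjusted p = 7.2e-04) and Iglc1 by 2.86 (SE 0.48, adjusted p = 0.0017), both from under 1 CPM at 1 month. Ighg2c rose by 2.77 (SE 0.65, adjusted p = 0.019) and missed the threshold when 6-month kidney 1 or 2, or any 1-month kidney, was left out (largest adjusted p 0.11). Of 13 immunoglobulin constant and joining genes in the list 10 passed the filter on low values, which genes high in any 3 kidney libraries pass, and 6 of these were higher at 6 months. Of 27 immunoglobulin variable genes that passed it 13 were higher and none lower, where 3.81% and 2.75% of all tested genes were. In NZB/W-F1 kidneys 26 of the 27 were higher at 6 months. The filter could admit constant and variable genes through libraries where they are high, so neither count tests a direction.

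No B cell marker passed beside the antibody genes. The summed level of 9 tested B cell genes was 9.45 to 13.7 CPM at 6 months and 11.1 to 17.1 CPM at 1 month, where Bank1, Blk and Pax5 did not pass the filter. Ms4a1 had 0.547, 0.0632 and 0.102 CPM at 6 months, against 1.47, 1.15 and 0.640 CPM at 1 month (adjusted p = 0.091). Of 12 tested plasma cell genes Jchain alone passed. Prdm1 and Xbp1, transcription factors of plasma cells that other kidney cells also express, did not pass, at 0.38 on the log2 scale for Prdm1 (adjusted p = 0.40) and 0.48 for Xbp1 (adjusted p = 0.053). The haemoglobin gene Hbb-bs, a sign of blood in the tissue, had 52, 209 and 14.6 CPM at 6 months, against 79.4, 816 and 331 CPM at 1 month, overlapping between the ages (adjusted p = 0.30).

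MHC class II genes rose with a smaller fold than the antibody genes named above. Of 9 tested MHC class II genes, whose products show peptides to helper T cells, 5 rose and none fell, at a median of 1.02. Beside this and the counts of the next lists, 3.81% of all tested genes rose and 2.75% fell. Their summed level was 1088 to 1440.4 CPM at 6 months and 522 to 592 CPM at 1 month. H2-Eb1 had 270.2, 214 and 210.0 CPM at 6 months, against 88.5, 90.6 and 101 CPM at 1 month (log2 fold change 1.30, SE 0.24, adjusted p = 0.0042). H2-Ab1 had 256, 206 and 196 CPM at 6 months, against 85.9, 83.2 and 100.4 CPM at 1 month (log2 fold change 1.28, SE 0.26, adjusted p = 0.0075). H2-DMa, a peptide editor, rose by 1.15 (SE 0.22, adjusted p = 0.0052). H2-Aa and the invariant chain Cd74 rose by 1.02 (SE 0.23, adjusted p = 0.014) and 1.10 (SE 0.24, adjusted p = 0.013). H2-Aa missed the threshold when 6-month kidney 1, or 1-month kidney 1 or 2, was left out (largest adjusted p 0.061), and Cd74 when 6-month kidney 1, or 1-month kidney 2, was left out (largest adjusted p 0.056). Of 20 tested MHC class I genes 2 rose, at a median of 0.32. H2-T23 rose by 0.68 (SE 0.15, adjusted p = 0.011) and lost its call when 6-month kidney 2 was left out (largest adjusted p 0.059), and H2-T22, which shares 51.8% of its words with other genes, rose by 0.67 (SE 0.17, adjusted p = 0.026) and lost it when 6-month kidney 1 or 2, or any 1-month kidney, was left out (largest adjusted p 0.11). Of 22 tested macrophage and dendritic cell genes 3 rose and none fell. Csf1r, the receptor of the macrophage growth factor, had 86.5, 91.2 and 81 CPM at 6 months, against 46.9, 45.9 and 44.1 CPM at 1 month (log2 fold change 0.91, SE 0.15, adjusted p = 0.0016). Xcr1, the chemokine receptor of cross-presenting dendritic cells, rose by 1.47 (SE 0.31, adjusted p = 0.0083), and the dendritic cell integrin Itgax by 1.13 (SE 0.28, adjusted p = 0.026), which missed the threshold when any of the 6 kidneys was left out (largest adjusted p 0.094). The summed level of these 22 genes was 396 to 543 CPM at 6 months and 277 to 306 CPM at 1 month.

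Of 16 tested chemokine genes 3 rose, Cx3cl1, Cxcl14 and Cxcl10, each with a fold change that missed the threshold in several of the leave-one-out fits. Cx3cl1, fractalkine, had 118, 138 and 126 CPM at 6 months, against 53.5, 61.4 and 85.8 CPM at 1 month (log2 fold change 0.95, SE 0.23, adjusted p = 0.020) and missed it when 6-month kidney 2 or 3, or 1-month kidney 1 or 2, was left out (largest adjusted p 0.097). Cxcl14 rose by 1.23 (SE 0.31, adjusted p = 0.025) and missed it when 6-month kidney 2 or 3, or 1-month kidney 1 or 2, was left out (largest adjusted p 0.11). Cxcl10 rose by 0.84 (SE 0.22, adjusted p = 0.032) and missed it when 6-month kidney 1 or 2, or any 1-month kidney, was left out (largest adjusted p 0.13). The interferon-stimulated list had few members that passed, where 3.81% of all tested genes were higher and 2.75% lower. Of 43 tested genes 2 rose, Cxcl10 and the guanylate-binding protein Gbp3, and 1 fell, Rsad2, at a median of 0.02. Gbp3 had 62.3, 83.4 and 62.8 CPM at 6 months, against 13.7, 18.7 and 23.4 CPM at 1 month (log2 fold change 1.89, SE 0.23, adjusted p = 9.0e-05). Rsad2, viperin, had 45.8, 28.5 and 34.2 CPM at 6 months, against 84.7, 65.9 and 87.8 CPM at 1 month (log2 fold change -1.14, SE 0.22, adjusted p = 0.0061). Of 25 tested kidney injury genes 1 rose, Havcr1, at 1.16, 1.58 and 3.25 CPM at 6 months, against 0.134, 0.153 and 0.192 CPM at 1 month, and it missed the threshold when 6-month kidney 2 or 3, or any 1-month kidney, was left out and in edgeR (largest adjusted p 0.13). The median of these 25 was 0.36, and 20 had positive fold changes. Fitted on the 6 libraries alone, where 3038 genes passed in all, 6 rose and 0 fell. Without 3 NZB/W-F1 libraries with adrenal or liver RNA or few Xist reads 3 rose and 0 fell.

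**Figure D3:**
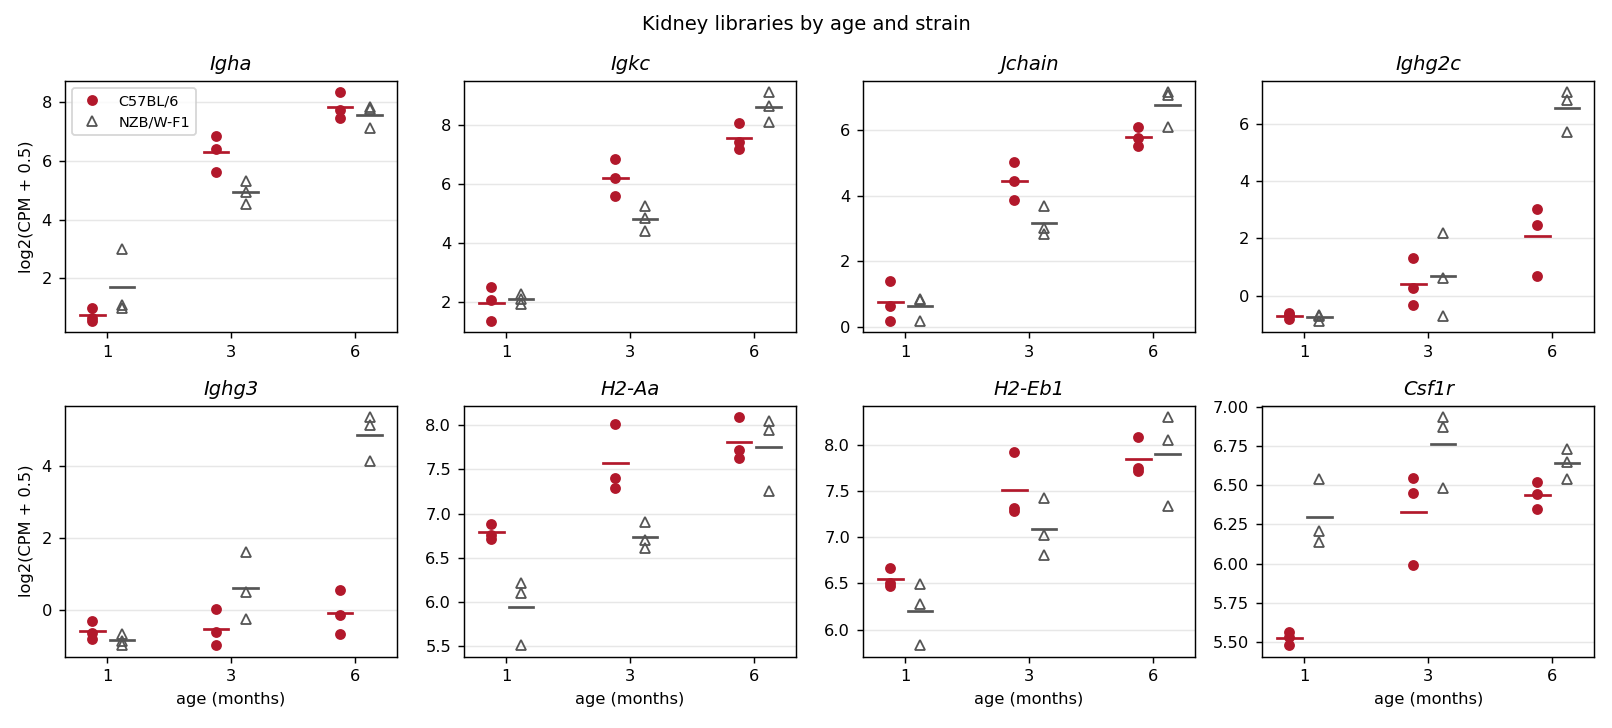
Level (vertical, log2 of CPM + 0.5) of 8 immune genes in kidney at 1, 3 and 6 months of age, red circles for C57BL/6 libraries and grey triangles for NZB/W-F1 libraries, with a bar at each group mean. In C57BL/6, Igha, Igkc and Jchain have higher means at 3 than at 1 month and higher still at 6 months, while Ighg3 stays under 1 CPM at all 3 ages and reaches 17.1 to 40.8 CPM in NZB/W-F1 kidneys of 6 months.

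Lipid and fat genes need their context. Most of the 26 tested genes of cholesterol and fatty acid synthesis did not pass, and their median was 0.15. Fdft1, squalene synthase, and Msmo1, a sterol oxidase, were at -0.43 and -0.24 on the log2 scale (adjusted p = 0.32 and 0.82). Cyp51, the lanosterol demethylase, had 329, 385 and 340.4 CPM at 6 months, against 84.2, 128 and 122 CPM at 1 month (log2 fold change 1.68, SE 0.22, adjusted p = 1.9e-04). The epoxidase Sqle rose by 0.90 (SE 0.25, adjusted p = 0.037) and missed the threshold when 6-month kidney 2 or 3, or 1-month kidney 1 or 2, was left out and with a replicate block (largest adjusted p 0.20). The 15 tested adipocyte markers summed to 1382 to 3119.5 CPM at 6 months and 392 to 3033 CPM at 1 month. None passed, and their median log2 fold change was 1.20. Adipoq had 146, 55 and 76.7 CPM at 6 months, against 6.83, 146 and 47.6 CPM at 1 month. Adipocyte RNA overlapped between the ages, and its part in the lipid genes was not tested.

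A single muscle gene differed. Myh1, a myosin of skeletal muscle, had 4.58, 3.85 and 2.24 CPM at 6 months, against 0, 0 and 0 CPM at 1 month, at least 44.9-fold higher against a floor of 3 reads over the 1-month group. Of 11 skeletal muscle genes in the list 2 passed the filter on low values, Myh1 and Pvalb. Pvalb, parvalbumin, which the distal convoluted tubule also expresses, had 28.3 to 35.5 CPM at 6 months and 15.9 to 25.6 CPM at 1 month and did not pass (adjusted p = 0.18), and the part of muscle RNA was not tested. Few segment markers of the nephron passed in the fit over all 18 kidney libraries, where 3.81% of all tested genes rose and 2.75% fell. Of 26 tested proximal tubule genes 1 rose and 1 fell, of 14 of the thick ascending limb none passed, and of 18 of the distal convoluted and connecting tubule 1 rose and 1 fell. Fitted on the 6 libraries alone, where 3038 genes passed in all, 7 proximal tubule genes rose and 5 fell. In that fit 3 thick ascending limb genes rose and 0 fell, and 2 distal genes rose and 3 fell. In the collecting duct Aqp4, a basolateral water channel, rose by 1.74 (SE 0.43, adjusted p = 0.025) and missed the threshold when 6-month kidney 2 or 3, or 1-month kidney 2 or 3, was left out (largest adjusted p 0.12). Of 17 tested genes of intercalated cells 1 rose, the channel Aqp6, by 0.86 (SE 0.17, adjusted p = 0.0066), and 1 fell, Atp6v1g3, a proton pump subunit, by 1.13 (SE 0.23, adjusted p = 0.0085). The median of these 17 was -0.28, 4 had positive fold changes, and the fall of Atp6v1g3 was lost when 1-month kidney 3 was left out (largest adjusted p 0.053). Of 28 tested oxidative phosphorylation genes none passed in limma at an adjusted p, at a median of -0.10, and of 13 tested senescence and ageing genes none passed, at a median of 0.21. Fitted on the 6 libraries alone, 1 intercalated cell gene rose and 6 fell. In that fit 0 oxidative phosphorylation genes rose and 9 fell, and 2 senescence and ageing genes rose and 2 fell.

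**Figure D4:**
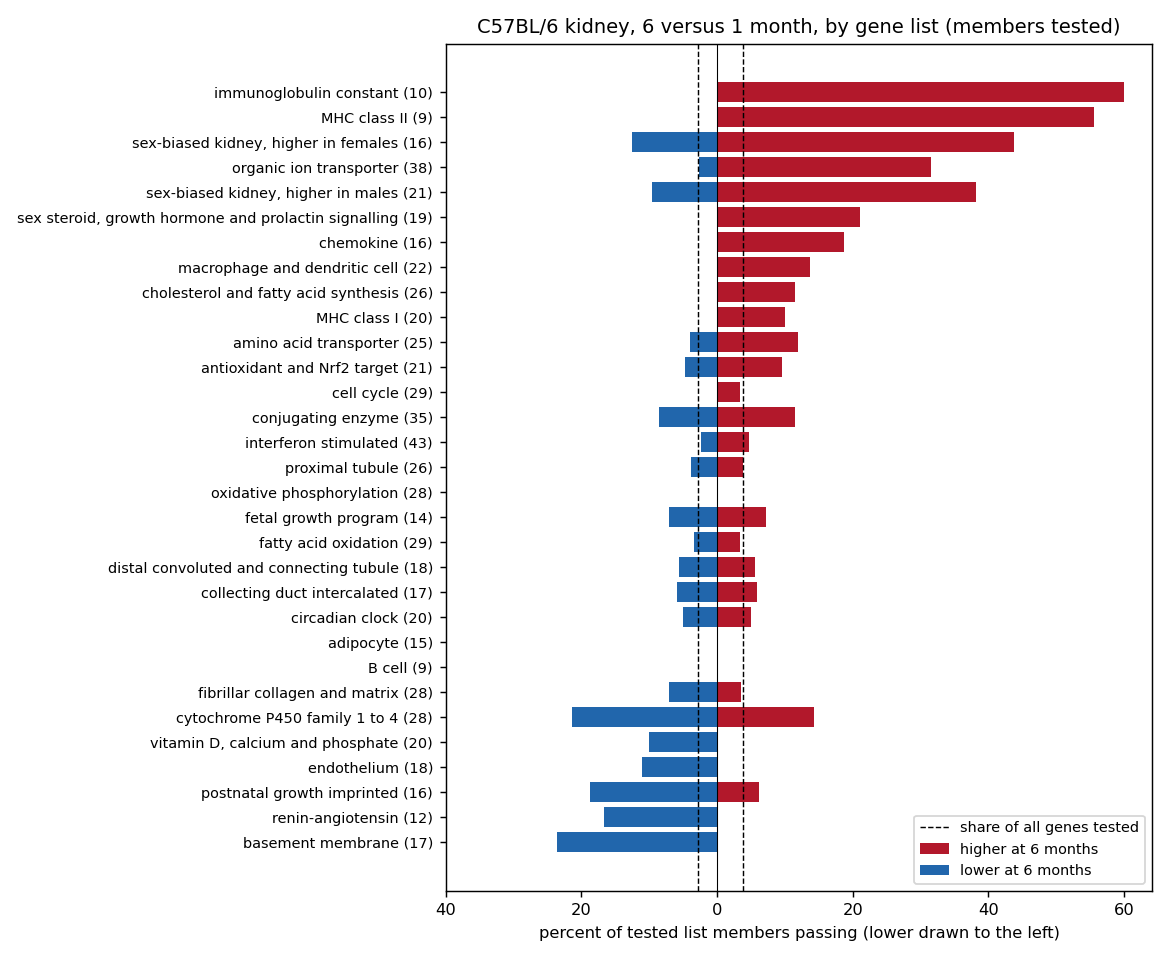
Share of the tested members of each gene list that passed at 6 against 1 month in C57BL/6 kidney (horizontal, percent), higher members drawn to the right in red and lower members to the left in blue, with the number tested in brackets. Dashed lines mark the shares over all tested genes, 3.81% higher and 2.75% lower. Immunoglobulin and MHC class II genes reach furthest to the right and basement membrane genes furthest to the left.

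In NZB/W-F1 kidneys the same ages were also compared, with no library shared with the C57BL/6 comparison, and 465 of 14373 genes passed (3.24%), 345 higher (2.4%) and 120 lower (0.835%) at 6 months. Without 3 NZB/W-F1 libraries, those with adrenal or liver RNA and the one with few Xist reads, 437 passed, 356 higher and 81 lower. Of the 547 genes higher in C57BL/6, 57 were also higher in NZB/W-F1, which is 10.4% of the C57BL/6 genes and 16.5% of the NZB/W-F1 genes. Of the 395 lower genes, 24 were shared, 6.08% of the C57BL/6 genes and 20% of the NZB/W-F1 genes. The difference between the strains was tested as an interaction, the C57BL/6 change minus the NZB/W-F1 change. It passed in 529 genes (3.68%), positive in 301 (2.09%) and negative in 228 (1.59%). Leaving out 3 NZB/W-F1 libraries that held adrenal or liver RNA or few Xist reads gave 792. Leaving out 6-month kidney 1, 2 or 3 of C57BL/6 gave 477, 180 or 264, and 1-month kidney 1, 2 or 3 gave 292, 264 or 264. Leaving out 6-month kidney 1, 2 or 3 of NZB/W-F1 gave 287, 717 or 301, and 1-month kidney 1, 2 or 3 gave 1261, 361 or 317. By sample number, the C57BL/6 kidneys of 1 month stand apart from those of 6 months and from NZB/W-F1 kidneys of both ages. Whether this marks a batch is not stated. A batch of that kind cannot be told apart from the interaction, or from a strain difference at 1 month.

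Among the genes that rose most in C57BL/6, several were high in NZB/W-F1 kidneys already at 1 month. Slc22a7 had 321, 393 and 427 CPM at 6 months, against 317, 327 and 635 CPM at 1 month in NZB/W-F1, where C57BL/6 kidneys had 6.02, 8.95 and 6.72 CPM at 1 month (interaction 5.81, SE 0.35, adjusted p = 3.0e-07). Slc10a2 had 82.4, 61.5 and 79.7 CPM at 6 months, against 118, 97 and 189 CPM at 1 month in NZB/W-F1 (interaction 4.84, SE 0.35, adjusted p = 1.6e-06). C8a had 55.4, 45.6 and 71.7 CPM at 6 months, against 36.4, 24.1 and 44.7 CPM at 1 month in NZB/W-F1 (interaction 4.57, SE 0.36, adjusted p = 4.2e-06). For Slc22a7, Slc10a2 and C8a every NZB/W-F1 library of 1 month exceeded every C57BL/6 library of that age. How many of all genes did so was not counted. Akr1c18 had 399, 207 and 259.8 CPM at 6 months, against 1161, 159 and 221 CPM at 1 month in NZB/W-F1 (interaction 7.18, SE 0.86, adjusted p = 2.8e-04). Ghr had 743, 461 and 754 CPM at 6 months, against 517, 415 and 765 CPM at 1 month (interaction 1.64, SE 0.37, adjusted p = 0.022), whose interaction missed the threshold when 6-month kidney 2 or 3, or 1-month kidney 1 or 3, was left out (largest adjusted p 0.069). Cyp2a4 was an exception, rising in NZB/W-F1 too, with 325, 271 and 269 CPM at 6 months, against 37, 9.77 and 39.9 CPM at 1 month, though by less (interaction 4.65, SE 0.52, adjusted p = 1.3e-04). Slc17a2 had 11.4, 6.95 and 13.9 CPM at 6 months, against 12.8, 5.76 and 11.1 CPM at 1 month in NZB/W-F1, where no change was called (log2 fold change 0.14, adjusted p = 0.87) (interaction 3.95, SE 0.37, adjusted p = 3.0e-05). Of 38 tested organic ion transporters 11 passed the interaction, all 11 positive, where 2.09% of all tested genes were positive. The 1-month NZB/W-F1 replicate 1 carried liver and adrenal RNA, with Alb at 5556 CPM and Cyp11b1 at 247 CPM, and the interaction of Slc22a7, Slc10a2, C8a and Slc17a2 passed without it. The 1161 CPM of Akr1c18 and the 37 CPM of Cyp2a4 were in that library. The part of adrenal or liver RNA in them was not tested, and their interaction without that library is not given here.

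Serpina6 fell in both strains and further in C57BL/6. NZB/W-F1 kidneys had 17.9, 14.8 and 30.2 CPM at 6 months, against 345, 430.4 and 208 CPM at 1 month (interaction -3.84, SE 0.60, adjusted p = 0.0028). Slc7a13 fell in NZB/W-F1 too, to 1.94, 1.16 and 0.964 CPM at 6 months, against 6.57, 9.25 and 7.81 CPM at 1 month, and the changes were not shown to differ (interaction -0.86, SE 0.30, adjusted p = 0.12). Ighg3, a heavy chain constant region of IgG, had 34.7, 40.8 and 17.1 CPM at 6 months, against 0.126, 0 and 0.0454 CPM at 1 month in NZB/W-F1 kidneys, where C57BL/6 kidneys had 0.957, 0.126 and 0.406 CPM at 6 months, against 0.134, 0.306 and 0.0640 CPM at 1 month (interaction -5.23, SE 0.63, adjusted p = 2.8e-04). The strains were not shown to differ in their change of Igha (interaction 1.22, SE 0.62, adjusted p = 0.27) or of Igkc (interaction -0.93, SE 0.49, adjusted p = 0.29). Pla2g7, a phospholipase of macrophages that degrades platelet-activating factor, had 13.2, 12 and 15.5 CPM at 6 months, against 19.4, 16.2 and 18.6 CPM at 1 month in C57BL/6. The values of NZB/W-F1 were 13.2, 18 and 16.4 CPM at 6 months, against 7.45, 6.98 and 5.59 CPM at 1 month (interaction -1.59, SE 0.23, adjusted p = 0.0019). Rassf4, a Ras-association protein, had 7.24, 6.44 and 4.88 CPM at 6 months, against 9.37, 7.73 and 7.42 CPM at 1 month in C57BL/6. NZB/W-F1 kidneys had 9.39, 13 and 9.64 CPM at 6 months, against 4.67, 4.13 and 3.32 CPM at 1 month (interaction -1.68, SE 0.25, adjusted p = 0.0020).

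**Figure D5:**
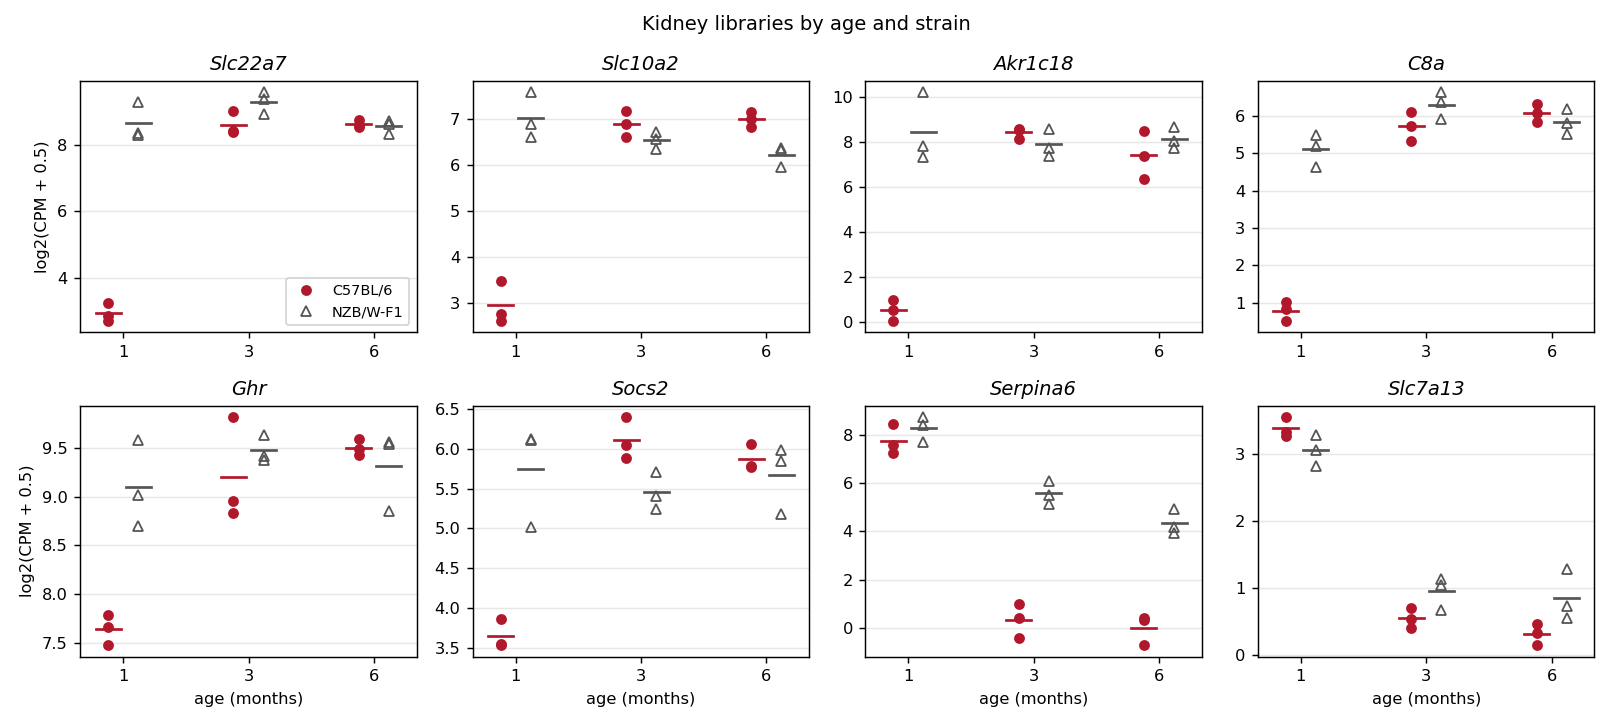
Level (vertical, log2 of CPM + 0.5) of 8 genes in kidney at 1, 3 and 6 months of age, red circles for C57BL/6 libraries and grey triangles for NZB/W-F1 libraries, with a bar at each group mean. In C57BL/6 the first 6 genes are low at 1 month and high at 3 and 6 months, while NZB/W-F1 libraries are high at all 3 ages. Serpina6 and Slc7a13 are high at 1 month in both strains.

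Kidneys of 3 months fall between the ages compared. They were set against the same 1-month libraries, so both comparisons share their controls. At 3 months Slc22a7 had 344, 337 and 515 CPM and Akr1c18 had 367, 281 and 379 CPM, near or above the levels of 6 months. Serpina6 had 0.251, 0.831 and 1.48 CPM at 3 months. Igha had 49, 114 and 84.5 CPM at 3 months, between its 1-month and 6-month ranges, as did Igkc with 48, 115 and 72.5 CPM and Jchain with 14.2, 32.3 and 21.6 CPM. The log2 fold changes of 3 over 1 month were 5.68 for Slc22a7, 7.88 for Akr1c18, -7.44 for Serpina6 and 5.56 for Igha (adjusted p from 8.5e-10 to 8.5e-07), and 2475 genes passed (17.2%), 1201 higher (8.36%) and 1274 lower (8.86%).

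Between 6 and 3 months 1 gene passed in limma (0.00696%), and 0 in edgeR, with 2359 (16.4%) and 2111 genes at an unadjusted p under 0.05. That gene, Igkv10-96, a kappa light chain variable segment, had 3.69, 3.03 and 4.57 CPM at 6 months, against 1.00, 0.119 and 0.370 CPM at 3 months (log2 fold change 2.18, adjusted p = 0.035), and was named after its value was seen. The 3-month group was split: replicates 1 and 2 were close to each other (mean chi-square per gene 6.29) and far from replicate 3 (42.9 and 35.7), where pairs within the other 2 ages gave 9.45 to 12.6. Umod, for example, had 224, 298 and 1536 CPM at 3 months. Leaving out 3-month kidney 1, 2 or 3 gave 1, 0 or 1780 genes between 6 and 3 months and 977, 1105 or 3930 between 3 and 1 month. Leaving out 6-month kidney 1, 2 or 3 gave 0, 0 or 1 between 6 and 3 months, and 1-month kidney 1, 2 or 3 gave 1537, 1126 or 1215 between 3 and 1 month.

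The same ages were compared in brain and spleen of C57BL/6 mice. By the codes in the labels these organs came from the same animals as the kidneys, 2 of the 3 for the spleens of 6 months, so the tissues are not independent. In brain 661 of 14895 genes passed (4.44%), 267 higher (1.79%) and 394 lower (2.65%), and in spleen 28 of 15122 passed (0.185%), 24 higher (0.159%) and 4 lower (0.0265%). Leaving out brain 1, 2 or 3 of 6 months gave 161, 193 or 2455 genes, and brain 1, 2 or 3 of 1 month gave 394, 170 or 279. Leaving out spleen 2 of 6 months gave 4 genes, and spleen 1, 2 or 3 of 1 month gave 13, 61 or 18. Of the 547 higher and 395 lower kidney genes, 371 and 333 were tested in brain, and 384 and 327 in spleen. Percentages of kidney genes here are of all 547 or 395. The kidney and brain comparisons shared 11 of the higher genes, 2.01% of those in kidney and 4.12% of those in brain, and 14 of the lower genes, 3.54% and 3.55%. Lox and Eln were among these lower genes, with log2 fold changes of -1.42 and -1.92 in brain (limma adjusted p = 0.0070 and 0.0011). Kidney and spleen shared 8 higher genes, 1.46% of those in kidney and 33.3% of those in spleen, and all 8 were immunoglobulin genes or Jchain. In spleen Igha had 2982 and 2896 CPM at 6 months (2 libraries), against 119, 105 and 88.5 CPM at 1 month (log2 fold change 4.82, SE 0.67, adjusted p = 0.0077). Ighg2b in spleen had 719 and 823 CPM at 6 months, against 19.6, 18.2 and 17.5 CPM at 1 month (log2 fold change 5.35, adjusted p = 1.4e-07).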

How the data were processed

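TRIzol RNA went into TruSeq RNA Sample Prep v2 libraries, per the labels' protocols, and how strand was treated in counting is not given in the sources used here. The submitters' processing notes name STAR 2.6, HTSeq and edgeR, with mm10 as the build. The authors deposited 1 table per tissue whose values, CPM per the labels, are a signal on the authors' normalised scale. Whole reads were recovered from 100% of the values, within a tolerance of 0.01, and gave 5456869 to 16820529 reads in genes per kidney library. Floors and intervals cover counting error only. In the 6 libraries compared, 3 counter rows that name no gene took 23.7 to 26.3% of the reads and were left out. Of 14453 kidney IDs, 14448 matched GENCODE vM21, which annotates GRCm38 (mm10).

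Limma 3.58.1 (R 4.3.3) was run with a trended prior on log2(CPM + 0.5), fitting group means over all 18 kidney libraries, for genes with at least 1 CPM in at least 3 libraries. Fold changes are on that scale, which understates changes of low genes. Tests were two-sided, at a Benjamini-Hochberg adjusted p of 0.05. Brain and spleen were fitted on their own. P-values reflect the spread between these libraries alone. EdgeR 4.0.16 and DESeq2 1.42.0 were run on the recovered reads. The tests were also checked on simulated reads, with the same spread setting for every gene and no library that stands apart. That check does not cover the libraries here that do stand apart. Where leaving out a library left 1 in a group, it was assumed to vary like the others.

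The comparison and the 54 gene lists were chosen with earlier results of these data known. Named genes are, at an adjusted p under 0.05, at least 5 CPM on average at either age and libraries that do not overlap, the 14 with the largest change in each direction, without predicted genes and variable segments. List members could be named if they passed or were among the 6 of lowest p, and 4 interaction genes in each direction. Markers and list members given as context were chosen after their values were seen. A few genes are not reported here. Genes sharing at least 50% of their 31-base words with another gene are given as uncertain.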

Additional observations from a re-analysis of the deposited data

Results flagged for a closer look

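The change between 6 and 1 month differed between the strains by the test of the interaction in 529 genes. The values below are the C57BL/6 change minus the NZB/W-F1 change on the log2 scale, and each kept its call under the alternatives tried. Slc22a7 differed by 5.81, Slc10a2 by 4.84, C8a by 4.57 and Slc17a2 by 3.95, all with a rise that passed in C57BL/6. Ighg3 was at -5.23, with a rise that passed in NZB/W-F1 and not in C57BL/6. Pla2g7 was at -1.59 and Rassf4 at -1.68, both with means higher at 6 months in NZB/W-F1 and lower in C57BL/6. Serpina6 was at -3.84, with the larger fall in C57BL/6. A batch shared by the C57BL/6 kidneys of 1 month cannot be told apart from these differences. Groups of 3 libraries are too small for a rule on single libraries that stand apart.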

How the results depend on the processing

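Counts of genes that passed for 6 against 1 month in C57BL/6 kidney were 911 in edgeR, 1403 in DESeq2, 942 with median-of-ratios scaling, 934 with no filter, 956 with a pseudocount of 0.1, 935 with reads in genes as library size and 1316 without 3 NZB/W-F1 libraries, against 942 as reported. With only the compared groups fitted it was 3038. The fits with reads in genes as library size and without 3 NZB/W-F1 libraries were chosen after seeing the data. Scaling moved the median of all genes by 0.00789. With only the compared groups fitted, brain gave 96 genes against 661, spleen 7 against 28 and 6 against 3 months 0 against 1. The 1 gene of 6 against 3 months also became 0 in edgeR, with a pseudocount of 0.1, with reads in genes as library size and without the 3 NZB/W-F1 libraries. The cause of these moves was not tested.

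Leaving out 1 library gave 351 to 683 genes for 6 against 1 month, 977 to 3930 for 3 against 1 month, 0 to 1780 for 6 against 3 months, 180 to 1261 for the interaction, 161 to 2455 in brain and 4 to 61 in spleen. Of 126 named genes that passed, 68 passed under every alternative and 58 missed the threshold in at least 1, 3 of them in edgeR, and no direction reversed.

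The replicate numbers do not pair the libraries: deviations of same-numbered libraries of 6 and 1 month had correlations of -0.21, -0.11 and 0.06. With a replicate block 904 genes passed for 6 against 1 month, 2635 for 3 against 1 month, 1 for 6 against 3 months, 515 for the interaction, 466 in brain and 26 in spleen. At this depth, genes near the floor of 3 reads at 1 month have bounds rather than folds.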

Other observations

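Some groups not described above moved little or in pieces, where 3.81% of all tested genes were higher and 2.75% lower. Of 22 antioxidant genes in the list 21 were tested, of which Gclc, the catalytic subunit of glutathione synthesis, and Sod1, a superoxide dismutase, rose, and Nqo1, a quinone reductase, fell. Gclc had 219.7, 362 and 235 CPM at 6 months, against 126, 122 and 125 CPM at 1 month (log2 fold change 1.09, SE 0.21, adjusted p = 0.0047). Sod1 had 439, 470.2 and 443 CPM at 6 months, against 289, 282 and 275 CPM at 1 month (log2 fold change 0.67, SE 0.14, adjusted p = 0.010) and missed the threshold when 6-month kidney 2 was left out (largest adjusted p 0.057). Nqo1 fell by 0.82 on the log2 scale (adjusted p = 0.032) and missed it when 6-month kidney 2 or 3, or 1-month kidney 1 or 2, was left out (largest adjusted p 0.18). Of 20 circadian clock genes tested 1 rose, Bhlhe40, by 1.33 (SE 0.30, adjusted p = 0.016), and 1 fell, Clock, by 0.38 (adjusted p = 0.044). Bhlhe40 missed the threshold when 6-month kidney 2 or 3, or 1-month kidney 1, was left out (largest adjusted p 0.076) and Clock when any of the 6 kidneys was left out (largest adjusted p 0.21), and the hour at which the kidneys were taken is not given in the sources used here.

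Krt5, a keratin of basal urothelium, had 8.54, 5.81 and 13.9 CPM at 6 months, against 2.14, 3.60 and 1.66 CPM at 1 month, and 31.9, 24.6 and 15 CPM at 3 months. Its log2 fold change of 6 over 1 month was 1.71 (SE 0.43, adjusted p = 0.027), which missed the threshold when 6-month kidney 1 or 3, or 1-month kidney 1 or 3, was left out (largest adjusted p 0.13). It was 1 of 9 tested urothelial genes that passed, and the summed level of the list was 159 to 290.5 CPM at 6 months, 269.6 to 507 CPM at 3 months and 199.7 to 237 CPM at 1 month. The 3-month libraries with the highest sums were replicates 1 and 2, the pair that stood apart from replicate 3.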
